A study of Rattus norvegicus with 6 samples.

Results

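The non-collagen part of the extracellular matrix was followed here as 49 genes for matrix glycoproteins, elastic fibre proteins, proteoglycans, laminins and nidogens, found by their symbols in the gene count table. Of these, 47 had a row among the 33508 of the table, and 37 had enough counts to be among the 12104 genes tested. Bulk RNA-seq had been done on bone marrow mesenchymal stem cells (BMSCs) of 2-month-old male Sprague-Dawley rats, in 3 libraries of cells overexpressing FNDC5 from a lentivirus (BMSCs-OE-FNDC5) and 3 of cells given the negative control lentivirus (BMSCs-OE-NC). Every library, the controls included, came from cells held under hypoxia and serum deprivation (H/SD) for 24 h, in 1% O2, 94% N2 and 5% CO2 and in medium without glucose or serum. Before that the cells had been passaged 3 times, and virus had been given at 10 infectious particles per cell with polybrene at 6 μg/ml, in a 72 h transduction whose medium was replaced the next day. No group kept in normal medium was among these libraries, so the effect of H/SD itself was not measured. FNDC5 is the membrane protein from which the secreted peptide irisin is cleaved, and the comparison asked which transcripts differed when it was overexpressed in stressed BMSCs.

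The matrix is the network of secreted proteins that surrounds stromal cells and carries their attachment and growth factor signals. Adhesive and matricellular glycoproteins bind cells to it, fibrillins, fibulins and elastin build elastic fibres, and small leucine-rich proteoglycans coat collagen fibrils. Hyaluronan and its large proteoglycans fill the space between cells. In basement membranes, laminin trimers of an alpha, a beta and a gamma chain form a sheet that nidogens and perlecan tie to collagen IV.

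Total counts were 16640635 to 17229490 in BMSCs-OE-FNDC5 and 17430287 to 17965722 in BMSCs-OE-NC. Fndc5, the check of the labels, had 65589, 64672 and 64195 counts in BMSCs-OE-FNDC5, against 22, 17 and 25 counts in BMSCs-OE-NC. The libraries correlated at r = 0.990 to 0.992 within groups and 0.937 to 0.939 between groups, over genes and on log2 values. None of the 3 libraries of a group stood apart. The titles call the libraries of a group biological replicates. Neither labels nor methods say if they were made from separate rats or cultures, so p-values here measure only the spread between these libraries. Of 13 bone marrow stromal markers 12 were tested, and 4 were higher and 7 lower in BMSCs-OE-FNDC5. Of all genes tested 36.9% were higher and 38.8% lower at the same adjusted p under 0.05. Thy1 was among the higher, and Pdgfra, Pdgfrb, Vcam1 and Cxcl12 were among the lower. The summed level of the list was 11601 to 12069 CPM in BMSCs-OE-FNDC5 and 10917 to 11386 CPM in BMSCs-OE-NC. The largest part of this sum was Vim alone, with 6267 to 6364 CPM in BMSCs-OE-FNDC5, against 3243 to 3380 CPM in BMSCs-OE-NC. The sum therefore hides the falls of the 7 lower markers. Summed levels of lists of other cell types were higher in BMSCs-OE-FNDC5, at low levels and mostly through a single gene in each list. Macrophage markers summed to 198 to 206 CPM against 98.3 to 104 CPM in BMSCs-OE-NC, nearly all of it Cd14. Ptprc, Aif1, Cd163 and 7 others of the 15 macrophage genes were at 0 in all libraries. The endothelial list summed to 90.6 to 94.0 CPM against 51.8 to 55.3 CPM in BMSCs-OE-NC with 8 of 11 genes at 0. Nearly all of it was Egfl7, with a mean of 92.5 CPM in BMSCs-OE-FNDC5 and 52.7 CPM in BMSCs-OE-NC. The retina and neuron list summed to 42.2 to 45.2 CPM against 16.0 to 20.2 CPM in BMSCs-OE-NC with 7 of 15 at 0. Nearly all of that was Stmn2, with a mean of 42.4 CPM in BMSCs-OE-FNDC5 and 17.4 CPM in BMSCs-OE-NC. The epithelial list summed to 2.66 to 4.37 CPM against 1.52 to 2.12 CPM in BMSCs-OE-NC with 7 of 10 at 0. The erythroid list summed to 3.27 to 3.97 CPM against 1.16 to 1.74 CPM in BMSCs-OE-NC with 5 of 8 at 0. Most of the epithelial sum was Krt8 (mean 3.45 CPM in BMSCs-OE-FNDC5 and 1.75 CPM in BMSCs-OE-NC). Most of the erythroid sum was Klf1 (mean 2.62 CPM in BMSCs-OE-FNDC5 and 1.05 CPM in BMSCs-OE-NC). The part of any of these markers in the results on matrix genes was not tested. In such bulk libraries fewer cells of a type and less RNA per cell cannot be told apart.

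Matrix transcripts changed in both directions, with the deepest falls in Fbln5, Thbs2 and Nid1 and rises of over 2-fold in Tgfbi, Fbln2, Mfap5, Gpc1 and Acan. Of the 37 genes tested, 12 were higher in BMSCs-OE-FNDC5 (32.4%, against 36.9% of all genes tested) and 18 were lower (48.6%, against 38.8%) at an adjusted p under 0.05 in edgeR's quasi-likelihood test. The other 7 did not pass. With a fold change over 2 as well, that is an absolute log2 fold change over 1, 5 were higher (13.5%, against 9.84% of all genes) and 12 were lower (32.4%, against 17.5%). In 33 of the 37 genes (89.2%) no BMSCs-OE-FNDC5 library lay within the range of the BMSCs-OE-NC libraries, as was so for 78.3% of all genes tested. The median log2 fold change of the 37 was -0.18, and that of all genes was -0.04. Levels are given as CPM, the count scaled to the size of the library with TMM (trimmed mean of M-values) factors, and levels of different genes are compared only as FPKM, which also divides by gene length.

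**Figure D1:**
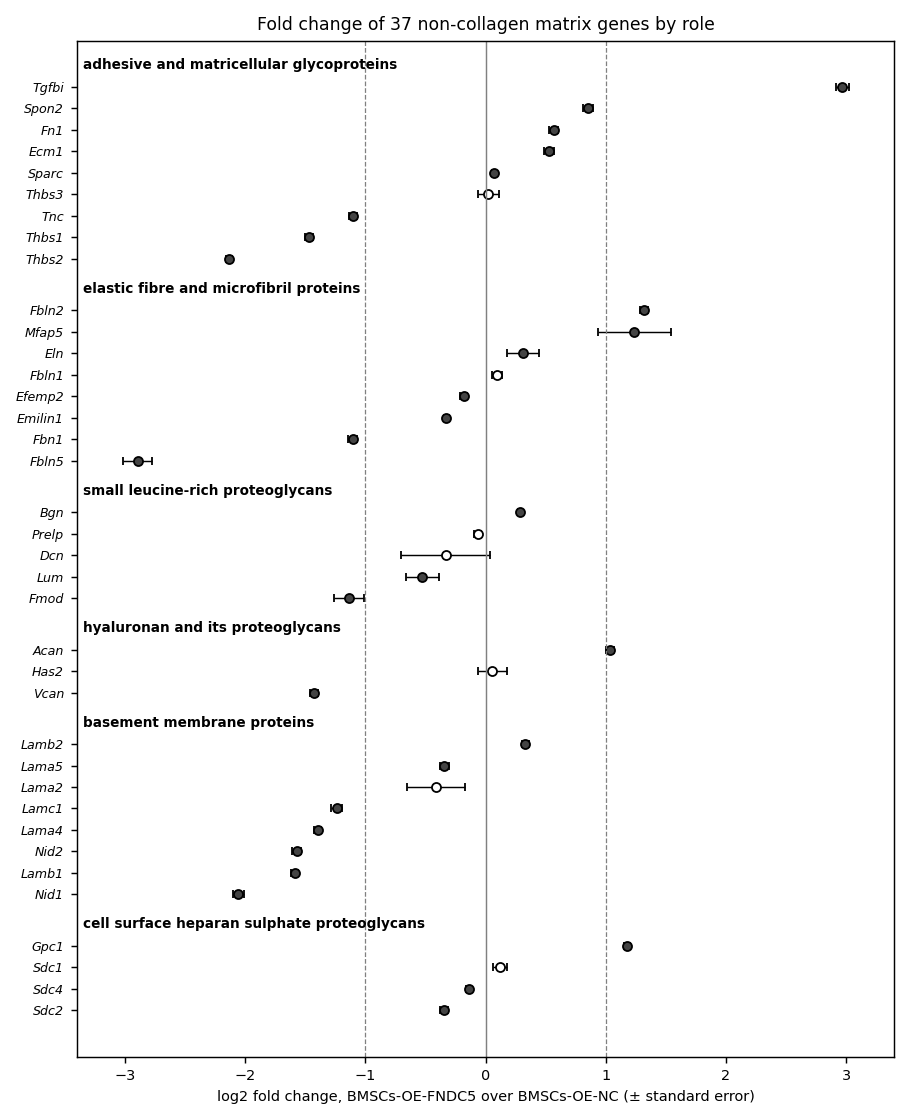
Log2 fold change between groups (positive where BMSCs-OE-FNDC5 was higher than BMSCs-OE-NC) in the 37 tested matrix genes, grouped by role, with bars of 1 standard error. Filled points passed an adjusted p of 0.05, open points did not, and dashed lines mark a log2 fold change of -1 and 1. Basement membrane genes lie between -2.06 and 0.33, with filled points left of 0 for 6 of 8, against 38.8% of all genes tested. Of the 6, Lama5 moved to the right of 0 once the trend with gene length was removed. Lamb2, the gene on the right, moved to the left with library size only.

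Promoters are shown because the study turned to Sp1, a transcription factor whose known motif is the GC box. Of the 49 genes 33 had a promoter in the RefSeq table of assembly GRCr8, a window of 250 bases before to 50 bases after the transcript start. Capitals mark GGGCGG or, on the other strand, CCGCCC, and each stretch is the last 150 bases before the start, 5′ to 3′ on the strand of the gene. The 9 shown are those of the matched genes with the largest absolute log2 fold changes, chosen after their values were seen. Tgfbi and Fbln2 were higher in BMSCs-OE-FNDC5, and the others were lower.
Tgfbi, chr17:7990114-7990263 (- strand): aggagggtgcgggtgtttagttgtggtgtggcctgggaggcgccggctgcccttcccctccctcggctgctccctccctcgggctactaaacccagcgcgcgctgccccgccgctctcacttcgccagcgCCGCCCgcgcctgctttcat
Fbln2, chr4:125261509-125261658 (+ strand): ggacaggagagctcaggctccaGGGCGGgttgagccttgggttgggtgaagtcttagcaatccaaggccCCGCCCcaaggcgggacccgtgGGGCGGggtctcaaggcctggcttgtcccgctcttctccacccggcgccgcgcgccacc
Fbln5, chr6:126742707-126742856 (- strand): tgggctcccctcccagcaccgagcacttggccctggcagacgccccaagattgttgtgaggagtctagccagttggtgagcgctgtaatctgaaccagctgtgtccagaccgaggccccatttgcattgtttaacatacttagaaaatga
Nid1, chr17:93069136-93069285 (+ strand): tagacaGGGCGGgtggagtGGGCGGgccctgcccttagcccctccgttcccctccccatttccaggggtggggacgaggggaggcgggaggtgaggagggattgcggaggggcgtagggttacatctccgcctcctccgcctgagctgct
Lamb1, chr6:53562946-53563095 (+ strand): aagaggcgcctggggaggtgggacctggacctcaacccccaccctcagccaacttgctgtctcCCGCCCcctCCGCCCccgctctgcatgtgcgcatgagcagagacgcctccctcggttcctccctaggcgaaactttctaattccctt
Thbs1, chr3:125510100-125510249 (+ strand): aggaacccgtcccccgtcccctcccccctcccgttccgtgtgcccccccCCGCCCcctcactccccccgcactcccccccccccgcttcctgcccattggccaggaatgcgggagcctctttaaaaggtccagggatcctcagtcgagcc
Vcan, chr2:22595956-22596105 (- strand): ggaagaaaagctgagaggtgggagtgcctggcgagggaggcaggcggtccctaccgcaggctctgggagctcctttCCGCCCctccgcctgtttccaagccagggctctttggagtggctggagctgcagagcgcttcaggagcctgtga
Lama4, chr20:43946748-43946897 (+ strand): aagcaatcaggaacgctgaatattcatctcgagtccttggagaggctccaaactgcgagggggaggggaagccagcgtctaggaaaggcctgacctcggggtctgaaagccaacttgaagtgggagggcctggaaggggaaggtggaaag
Lamc1, chr13:68051987-68052136 (- strand): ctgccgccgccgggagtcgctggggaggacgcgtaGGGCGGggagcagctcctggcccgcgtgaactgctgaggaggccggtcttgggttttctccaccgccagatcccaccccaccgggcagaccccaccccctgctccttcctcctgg

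A GC box was found in the whole window of 22 of the 33 matched genes (66.7%), against 33.1% of all 33469 promoters of the table and 64.8% of the 8549 promoters whose genes were tested. Among matched genes that were higher in BMSCs-OE-FNDC5 5 of 7 held one, and among those that were lower 11 of 14 did. All 3 matched genes that did not pass held one, as did 3 of the 9 that were not tested. Those 9 are among the 33 but not among the 8549, so 66.7% and 64.8% cover unlike sets. The window of Lamc1 held 5, of which 1 lies in the stretch shown. Those of Tgfbi and Thbs1 held 2 each, also with 1 in the stretch shown. The single one of Fbln5 lies outside its stretch, and the window of Lama4 held 0. The TATA box TATAAA was found in 5 of 33 windows (15.2%), against 14.2% of all promoters and 6.12% of those of tested genes, and 2 of the 5 were among the 9 matched genes that were not tested. The AP-1 motif TGACTCA was in 1 window (3.03%), against 4.63% of all promoters and 3.26% of those of tested genes. The short Smad motif CAGAC was in 22 (66.7%, against 50.1% and 48.5%), and the hypoxia core motif ACGTG was in 2 (6.06%, against 19.3% and 26.3%). Both strands were searched, none of the 5 motifs contains another, and a match is only a description of the window.

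Among adhesive and matricellular glycoproteins, 9 of 14 genes were tested, of which 5 were higher, 3 were lower and Thbs3 did not pass. Of all genes tested 36.9% were higher and 38.8% were lower. The thrombospondins Thbs1 and Thbs2 and tenascin C fell, while Tgfbi, spondin 2, fibronectin and Ecm1 rose. The median log2 fold change of the 9 was 0.07.

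Thrombospondin 2 (Thbs2; ENSRNOG00000010529, chromosome 1, 56653938 to 56683731 in the deposited table, whose build is not named) is a matricellular protein that binds matrix proteases. It had 656, 669.8 and 652 CPM in BMSCs-OE-FNDC5, against 2809, 2964 and 2885 CPM in BMSCs-OE-NC, a 4.38-fold lower level (log2 fold change -2.13, SE 0.02, adjusted p = 2.65e-13). All 3 BMSCs-OE-FNDC5 libraries lay far under all 3 BMSCs-OE-NC libraries. Its relative Thbs1 (thrombospondin 1), an activator of latent TGF-β, had 509.5, 526 and 503 CPM in BMSCs-OE-FNDC5, against 1347, 1456 and 1454 CPM in BMSCs-OE-NC, and was 2.77-fold lower (log2 fold change -1.47, SE 0.03, adjusted p = 1.77e-11). Again the groups did not overlap. Tnc, which encodes tenascin C, a hexameric glycoprotein of wounds and tendon, had 430.2, 424 and 419 CPM in BMSCs-OE-FNDC5, against 861, 944 and 921 CPM in BMSCs-OE-NC (log2 fold change -1.10, SE 0.03, adjusted p = 1.71e-10). The fall in Tnc was -0.23 on the log2 scale after the trend with gene length was removed, and that of Thbs1 and Thbs2 was -1.08 and -1.39, all with an adjusted p under 0.05.

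Tgfbi (ENSRNOG00000012216, chromosome 17, 8400146 to 8429338), a TGF-β induced adhesion protein that binds integrins and collagen, went the other way. It had 161, 159.5 and 163 CPM in BMSCs-OE-FNDC5, against 18.8, 21.1 and 22.0 CPM in BMSCs-OE-NC, a 7.82-fold higher level with no overlap between groups (log2 fold change 2.97, SE 0.05, adjusted p = 3.32e-12). This was the steepest rise among the 37 genes, and it was 2.60 with library size only and 3.13 with the length trend removed. Spon2, a spondin, was higher at 0.85 and Ecm1, a glycoprotein that binds other matrix proteins, at 0.53.

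Fibronectin (Fn1), which cells assemble into fibrils through integrins, took 22.0 to 22.8% of the counts of the 47 genes in BMSCs-OE-FNDC5 and 13.5 to 14.7% in BMSCs-OE-NC. Its level was 572 ± 15.5 FPKM in BMSCs-OE-FNDC5 and 379 ± 23.1 FPKM in BMSCs-OE-NC (SD, n = 3 each), and the log2 fold change was 0.57 (SE 0.04, adjusted p = 9.76e-08). The rise was 0.20 with library size only and 1.52 with the length trend removed. Sparc, the collagen-binding protein osteonectin, was one of the most abundant transcripts of the set, with 1520.2, 1513 and 1518 FPKM in BMSCs-OE-FNDC5, against 1408, 1419 and 1434 FPKM in BMSCs-OE-NC. The groups did not overlap, but the difference was small (log2 fold change 0.07, SE 0.02, adjusted p = 0.00254), was -0.04 with upper-quartile scaling and turned to -0.30 with library size only. Thbs3, a pentameric thrombospondin, had a log2 fold change of 0.02 (adjusted p = 0.823), and passed as -0.35 with library size only and as 0.32 with the length trend removed.

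The remaining adhesive genes were at or near 0. Comp had 5, 2 and 3 counts in BMSCs-OE-FNDC5, against 0, 3 and 1 in BMSCs-OE-NC, and Postn had 4, 1 and 0, against 0, 0 and 0 in BMSCs-OE-NC. Spon1 had 0, 0 and 0 counts in BMSCs-OE-FNDC5, against 2, 2 and 0 in BMSCs-OE-NC, Matn2 had a single count in all, and Sparcl1 had none. Periostin and COMP, products of Postn and Comp, are known from periosteum, tendon and cartilage.

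**Figure D2:**
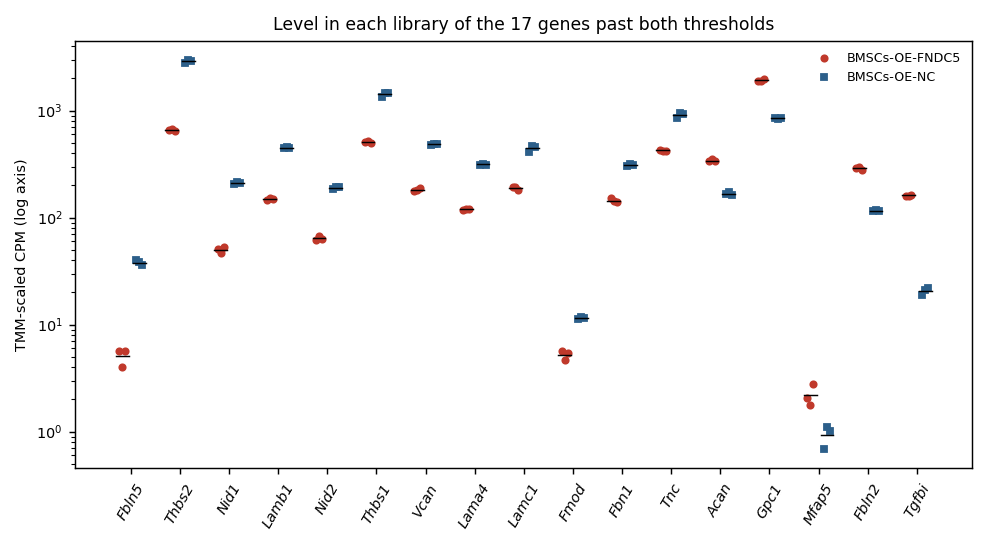
TMM-scaled CPM on a log axis of the 17 matrix genes that passed both thresholds, with 1 point per library and a line at each group mean, BMSCs-OE-FNDC5 left of BMSCs-OE-NC. The groups do not overlap in any of the 17, but these were chosen by their difference in the same libraries. Without such a choice, 78.3% of all genes tested had no overlap. The spread within a group is widest for Mfap5 and Fbln5, which have the fewest counts in BMSCs-OE-FNDC5.

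Elastic fibre and microfibril genes split by member. Of 12 genes 8 were tested, and 3 were higher, 4 were lower and Fbln1 did not pass, with a median log2 fold change of -0.04. The shares of all genes tested were 36.9% higher and 38.8% lower. The extremes were both fibulins.

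Fbln5 (ENSRNOG00000050539, chromosome 6, 125644804 to 125723944), the fibulin that brings elastin and its crosslinking enzymes to microfibrils, had 5.62, 4.02 and 5.7 CPM in BMSCs-OE-FNDC5, against 39.8, 38.3 and 36.2 CPM in BMSCs-OE-NC. It was 7.43-fold lower (log2 fold change -2.89, SE 0.12, adjusted p = 2.12e-09), the deepest fall among the 37 genes, and was -2.78 with the length trend removed. Fbln2, a fibulin of basement membranes and elastic fibres, had 291, 300.5 and 279 CPM in BMSCs-OE-FNDC5, against 115, 119 and 115 CPM in BMSCs-OE-NC, and was 2.49-fold higher (log2 fold change 1.32, SE 0.04, adjusted p = 6.11e-11). Neither gene had overlapping groups. Fbln1, another fibulin, had a log2 fold change of 0.10 (adjusted p = 0.0601), which passed in 5 of the alternative fits in the same direction and passed as -0.27 with library size only.

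Fbn1, which encodes fibrillin 1, the main backbone of microfibrils, had 152, 142 and 139 CPM in BMSCs-OE-FNDC5, against 301, 319 and 311 CPM in BMSCs-OE-NC (log2 fold change -1.10, SE 0.04, adjusted p = 5.09e-10). The groups did not overlap. Fbn1 has one of the longest transcripts of the set at 9891 bases, and with the length trend removed its log2 fold change was -0.07 and did not pass (adjusted p = 0.122). Mfap5, a microfibril-associated glycoprotein, had 31, 26 and 42 counts in BMSCs-OE-FNDC5, against 14, 22 and 20 counts in BMSCs-OE-NC, which was 2.05, 1.77 and 2.78 CPM in BMSCs-OE-FNDC5 and 0.688, 1.1 and 1.01 CPM in BMSCs-OE-NC (log2 fold change 1.24, SE 0.30, adjusted p = 0.00319). The rise passed an adjusted p of 0.05 in every alternative, on few counts.

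Emilin1 and Efemp2, at 230.4 and 251 FPKM in BMSCs-OE-FNDC5 and 284 and 280.2 FPKM in BMSCs-OE-NC, were the most abundant genes of the elastic group. Efemp2, fibulin 4, which is needed for elastin crosslinking, was lower at -0.18, and Emilin1, a glycoprotein at the surface of elastin, was lower at -0.33 but higher at 0.10 with the length trend removed. Eln, the elastin gene itself, had only 9.79, 9.14 and 9.6 CPM in BMSCs-OE-FNDC5, against 8.79, 7.13 and 7.02 CPM in BMSCs-OE-NC. Its log2 fold change of 0.31 had an adjusted p of 0.0499, which passed 0.05 barely and no longer did in 10 other fits, among them DESeq2 (adjusted p = 0.0885), the replicate block (adjusted p = 0.0608) and 5 of 6 fits that left out 1 library (0.0656 to 0.173), while it was -0.06 with library size only. Fbn2 and Efemp1 had no count in any library, Mfap2 had 0, 3 and 1 counts in BMSCs-OE-FNDC5, against 0, 2 and 0 in BMSCs-OE-NC, and Mfap4 had no row under its symbol.

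Small leucine-rich proteoglycans bind collagen fibrils and set their diameter. Biglycan dominated them, and 1 of the 5 tested genes was higher, 2 were lower and Prelp and Dcn did not pass. Across all genes tested 36.9% were higher and 38.8% lower. The median log2 fold change of the 5 was -0.33.

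Bgn (ENSRNOG00000055962, chromosome X, 157319046 to 157331204), which encodes biglycan, had 1562, 1573 and 1598 FPKM in BMSCs-OE-FNDC5, against 1289, 1253 and 1276 FPKM in BMSCs-OE-NC, the most abundant of the 47 genes in BMSCs-OE-FNDC5. It was 1.22-fold higher without overlap (log2 fold change 0.28, SE 0.02, adjusted p = 5.24e-08), but this turned to -0.09 with library size only. Decorin (Dcn), its closest relative and a common fibroblast transcript, had only 21, 13 and 8 counts in BMSCs-OE-FNDC5, against 23, 25 and 23 counts in BMSCs-OE-NC, and the groups overlapped (log2 fold change -0.33, adjusted p = 0.433). Fmod, which encodes fibromodulin of tendon and cartilage, had 5.62, 4.71 and 5.43 CPM in BMSCs-OE-FNDC5, against 11.2, 11.9 and 11.6 CPM in BMSCs-OE-NC (log2 fold change -1.14, SE 0.13, adjusted p = 8.09e-06). Every BMSCs-OE-FNDC5 library was under every BMSCs-OE-NC library. Lum, the gene for lumican of cornea and skin, was lower at -0.52 (adjusted p = 0.00416) on 5.59 to 7.15 CPM in BMSCs-OE-FNDC5 and 8.99 to 9.27 CPM in BMSCs-OE-NC. Prelp, at 92.2 FPKM in BMSCs-OE-FNDC5 and 94.7 FPKM in BMSCs-OE-NC, had a log2 fold change of -0.06 (adjusted p = 0.0708). It passed as -0.43 with library size only and as 0.32 with the length trend removed. It also passed as -0.17 with upper-quartile scaling, as -0.09 with at least 10 counts in every library and as -0.08 without BMSCs-OE-FNDC5 replicate 2. Ogn had 3, 8 and 1 counts in BMSCs-OE-FNDC5, against 11, 9 and 10 in BMSCs-OE-NC, and Aspn had 0, 0 and 0 counts in BMSCs-OE-FNDC5, against 0, 1 and 2 in BMSCs-OE-NC, and neither was tested.

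The large hyaluronan-binding proteoglycans parted. Acan, which encodes aggrecan, the space-filling proteoglycan of cartilage, had 336, 351 and 339 CPM in BMSCs-OE-FNDC5, against 166, 173 and 163 CPM in BMSCs-OE-NC, and was 2.05-fold higher (log2 fold change 1.03, SE 0.03, adjusted p = 2.04e-10). Vcan, which encodes versican of loose connective tissue, had 176, 179.6 and 188 CPM in BMSCs-OE-FNDC5, against 475, 493 and 492 CPM in BMSCs-OE-NC, and was 2.68-fold lower (log2 fold change -1.42, SE 0.03, adjusted p = 1.98e-11). Neither gene had overlapping groups. Vcan is 11553 bases long, the longest of the tested set, and its log2 fold change with the length trend removed was -0.32, still past an adjusted p of 0.05, while that of Acan was 1.88. Has2, which makes hyaluronan at the plasma membrane, had 13.1 to 15.5 CPM in BMSCs-OE-FNDC5 and 12.4 to 15.8 CPM in BMSCs-OE-NC. Its groups overlapped, and it did not pass (log2 fold change 0.06, adjusted p = 0.678), but it passed as -0.31 with library size only and as 0.55 with the length trend removed.

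Basement membrane genes formed the group with the most falls. All 8 with a row under their symbol were tested, 6 were lower, Lamb2 was higher and Lama2 did not pass, with a median log2 fold change of -1.32. Of all genes tested 36.9% were higher and 38.8% lower. Each of the 8 is over 3532 bases long, and the longest group of all genes, which starts there, had a median of -0.62. Lower past both thresholds were Nid1, Lamb1, Nid2, Lama4 and Lamc1, against 17.5% of all genes. With the length trend removed the median was -0.57, and 3 were higher and 5 lower, against 38.1% and 33.6% of all genes. With library size only none of the 8 was higher and 7 were lower, against 22% and 55.4% of all genes.

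Nidogen 1 (Nid1; ENSRNOG00000002461, chromosome 17, 90553394 to 90627101), which bridges the laminin and collagen IV networks, had 50.8, 46.9 and 53.5 CPM in BMSCs-OE-FNDC5, against 206, 213 and 209 CPM in BMSCs-OE-NC. It was 4.16-fold lower (log2 fold change -2.06, SE 0.05, adjusted p = 1.61e-11). Its paralogue Nid2 had 62.4, 66.7 and 63.3 CPM in BMSCs-OE-FNDC5, against 186, 192 and 193 CPM in BMSCs-OE-NC, a 2.97-fold lower level (log2 fold change -1.57, SE 0.04, adjusted p = 2.54e-11). The BMSCs-OE-FNDC5 libraries of both genes lay well under the BMSCs-OE-NC libraries. Both falls stayed over 2-fold with the length trend removed, at -1.34 and -1.01 on the log2 scale.

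Lamb1 (ENSRNOG00000005678, chromosome 6, 50528823 to 50596079), the gene for the laminin beta 1 chain, had 146, 154 and 151 CPM in BMSCs-OE-FNDC5, against 446, 456 and 449.6 CPM in BMSCs-OE-NC and was 3.00-fold lower (log2 fold change -1.59, SE 0.03, adjusted p = 4.55e-12). Lama4, for the alpha 4 chain of mesenchymal and vascular laminins, had 118, 121 and 120.3 CPM in BMSCs-OE-FNDC5, against 314, 321 and 310.2 CPM in BMSCs-OE-NC (log2 fold change -1.39, SE 0.03, adjusted p = 1.16e-11). Its span contains Fam229b on the opposite strand, whose counts came to 1.12% of those of Lama4. Lamc1, for the gamma 1 chain found in most laminins, had 192, 192 and 181 CPM in BMSCs-OE-FNDC5, against 411, 463 and 459 CPM in BMSCs-OE-NC (log2 fold change -1.24, SE 0.05, adjusted p = 8.22e-10). In all 3 genes each BMSCs-OE-FNDC5 library was lower than each BMSCs-OE-NC library. With the length trend removed the log2 fold changes were -0.88 for Lamb1, -0.65 for Lama4 and -0.49 for Lamc1, past an adjusted p of 0.05 but within 2-fold.

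Lamb2, for the beta 2 chain known from synapses and kidney, differed in direction from Lamb1, except with library size only. It had 303, 308 and 296 CPM in BMSCs-OE-FNDC5, against 243, 243 and 235 CPM in BMSCs-OE-NC, a log2 fold change of 0.33 (SE 0.03, adjusted p = 1.22e-06), which was -0.04 and did not pass with library size only and was 1.07 with the length trend removed. The groups did not overlap. Lama5, for the alpha 5 chain of epithelial and vascular laminins, had 263, 257 and 259 CPM in BMSCs-OE-FNDC5, against 312, 337 and 338 CPM in BMSCs-OE-NC (log2 fold change -0.34, adjusted p = 3.91e-06), but was 0.76 with the length trend removed. Lama2, the chain of muscle laminin, was low, at 2.32 to 4.17 CPM in BMSCs-OE-FNDC5 and 3.39 to 4.34 CPM in BMSCs-OE-NC. Its groups overlapped, and it did not pass (log2 fold change -0.41, adjusted p = 0.148). It passed as -0.74 without BMSCs-OE-FNDC5 replicate 3, the highest library of its group. With library size only it passed as -0.78, and with the length trend removed as 0.60.

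Hspg2, the perlecan gene, had no row under its symbol. A row without a symbol (chromosome 5, 155885992 to 155914704) that the table describes as perlecan had 292, 276 and 289 CPM in BMSCs-OE-FNDC5, against 249.8, 253 and 256 CPM in BMSCs-OE-NC. It was higher at 0.18 (SE 0.03, adjusted p = 2.83e-04) but was -0.19 with library size only and 1.10 with the length trend removed, and it was not counted among the 47 genes.

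Set against each other within a library, where scaling drops out, the laminin alpha and beta chains differed in makeup between the groups. Lamb1 and Lamb2 are close in length, at 5645 and 5902 bases, and the FPKM ratio of Lamb1 to Lamb2 was 0.519 ± 0.0142 in BMSCs-OE-FNDC5 and 1.96 ± 0.041 in BMSCs-OE-NC (SD, n = 3 each). Of the beta chain FPKM, Lamb2 made up 62.4 to 63.2% in BMSCs-OE-FNDC5 and 32.9 to 34.0% in BMSCs-OE-NC. Of the alpha chain FPKM, Lama5 made up 52.4 to 53.7% in BMSCs-OE-FNDC5 and 34.2 to 36.2% in BMSCs-OE-NC, with Lama4 nearly all of the rest. Lama3 had no row under its symbol, so the alpha class is that of Lama1, Lama2, Lama4 and Lama5 only. At the scaling of the deposited values, summed FPKM was lower in BMSCs-OE-FNDC5 for both chain classes, with 43.3 to 43.6 against 79.4 to 82.9 in BMSCs-OE-NC for alpha and 80.4 to 83.7 against 118 to 122 in BMSCs-OE-NC for beta. These sums keep the trend with gene length. With that trend removed Lama5 and Lamb2 were higher (log2 fold change 0.76 and 1.07) and Lama4 and Lamb1 lower (-0.65 and -0.88). The sums were not computed in that fit, so a fall of either class is not shown there. The RNA makeup says nothing of the trimers that were assembled.

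**Figure D3:**
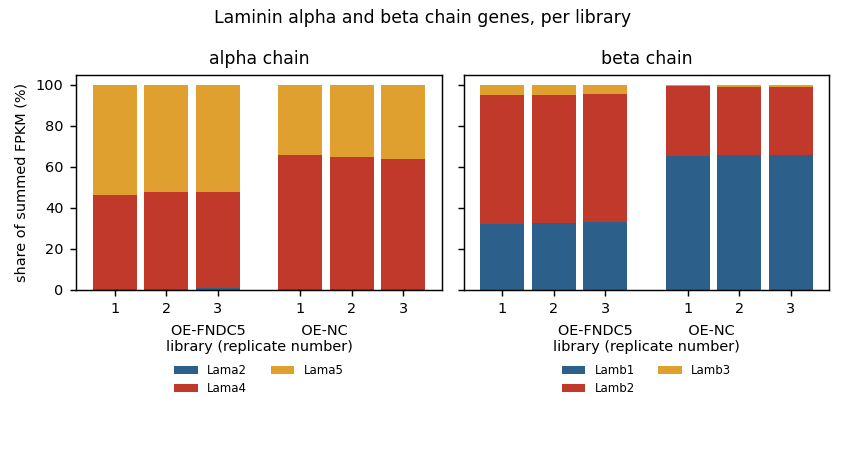
Share of the summed FPKM of each laminin chain class (alpha and beta) taken by each gene, 1 bar per library, BMSCs-OE-FNDC5 left of BMSCs-OE-NC. Lamb2 makes up more of the beta class in every BMSCs-OE-FNDC5 library (62.4 to 63.2%) than in any BMSCs-OE-NC library (32.9 to 34.0%), and Lama5 more of the alpha class (52.4 to 53.7% in BMSCs-OE-FNDC5 and 34.2 to 36.2% in BMSCs-OE-NC). The alpha class lacks Lama3, which had no row under its symbol.

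Ratios of related genes were compared in 8 pairs by exact permutation tests of the 6 libraries, two-sided, whose smallest possible p is 0.1 with 3 against 3 (4 more pairs had a library at 0). In 7 pairs the groups did not overlap and p was 0.1, with an adjusted p of 0.114 over the 8 pairs, so that no pair could pass 0.05. On the log2 scale, with 1 count added to each gene, the ratio differed by -1.92 for Lamb1 to Lamb2, -1.05 for Lama4 to Lama5, -0.49 for Nid1 to Nid2 and -1.22 for Fbln1 to Fbln2. The ratio of Thbs1 to Thbs2 was 1.25 ± 0.0104 in BMSCs-OE-FNDC5 and 0.791 ± 0.0196 in BMSCs-OE-NC, a difference of 0.66. That of Thbs3 to Thbs2 differed by 2.15 and that of Sdc1 to Sdc4 by 0.26. Only Dcn to Bgn overlapped between groups, with a difference of -0.67 (exact permutation p = 0.3).

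Among heparan sulphate proteoglycans of the cell surface, Gpc1 stood out. This glypican, anchored by a lipid tail and a co-receptor for fibroblast growth factors, had 1905, 1880.1 and 1972 CPM in BMSCs-OE-FNDC5, against 851, 844 and 851 CPM in BMSCs-OE-NC. It was 2.26-fold higher without overlap (log2 fold change 1.18, SE 0.02, adjusted p = 6.01e-12), and was 0.81 with library size only and 1.54 with the length trend removed. Sdc4, the syndecan of focal adhesions, had 534, 514 and 523 FPKM in BMSCs-OE-FNDC5, against 563, 575 and 563 FPKM in BMSCs-OE-NC. It was slightly lower without overlap (log2 fold change -0.14, adjusted p = 1.37e-04), but did not pass with the length trend removed (-0.03, adjusted p = 0.263). Sdc2 was lower at -0.35. Sdc1 had a log2 fold change of 0.12 (adjusted p = 0.0931). It passed as -0.25 with library size only, as 0.39 with the length trend removed and as 0.15 with RLE scaling.

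As a whole, the 47 genes took 1.88% ± 0.0116 of the counts in BMSCs-OE-FNDC5 and 2.59% ± 0.0549 in BMSCs-OE-NC (SD, n = 3 each; exact permutation p = 0.1, two-sided, the smallest possible). Measured against the TMM-scaled library size the shares were 2.14% ± 0.0164 in BMSCs-OE-FNDC5 and 2.28% ± 0.0426 in BMSCs-OE-NC (exact permutation p = 0.1). Summed as deposited FPKM the 47 genes went the other way, with 6378, 6399 and 6459 in BMSCs-OE-FNDC5, against 6257, 6355 and 6327 in BMSCs-OE-NC, without overlap. The TMM factors were 0.877 to 0.882 in BMSCs-OE-FNDC5 and 1.13 to 1.14 in BMSCs-OE-NC. With library size only, all genes tested had a median log2 fold change of -0.41 and the matrix genes one of -0.55, with 8 higher and 26 lower, against 22% and 55.4% of all genes. Tgfbi was then the 1 matrix gene that was higher past both thresholds, and 12 were lower, without a share of all genes computed at these thresholds.

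Matrix transcripts are long, and length moved with fold change across all genes tested. Split by length into 4 groups of equal size, all genes had a median log2 fold change of 0.52 in the shortest group and -0.62 in the longest, of 3532 to 29464 bases. That longest group held 21 of the 37 matrix genes, whose median was -1.10. With each library's trend of counts with length removed, 20 matrix genes were higher and 14 lower, against 38.1% and 33.6% of all genes, with a median of 0.10 against 0.03 for all genes. Past both thresholds were then 6 higher (Tgfbi, Acan, Fbln2, Gpc1, Fn1 and Lamb2) and 5 lower (Fbln5, Thbs2, Nid1, Thbs1 and Nid2). The share of all genes past both thresholds was not computed for this fit, so these counts have no background. Why length moved with fold change in these libraries was not tested.

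**Figure D4:**
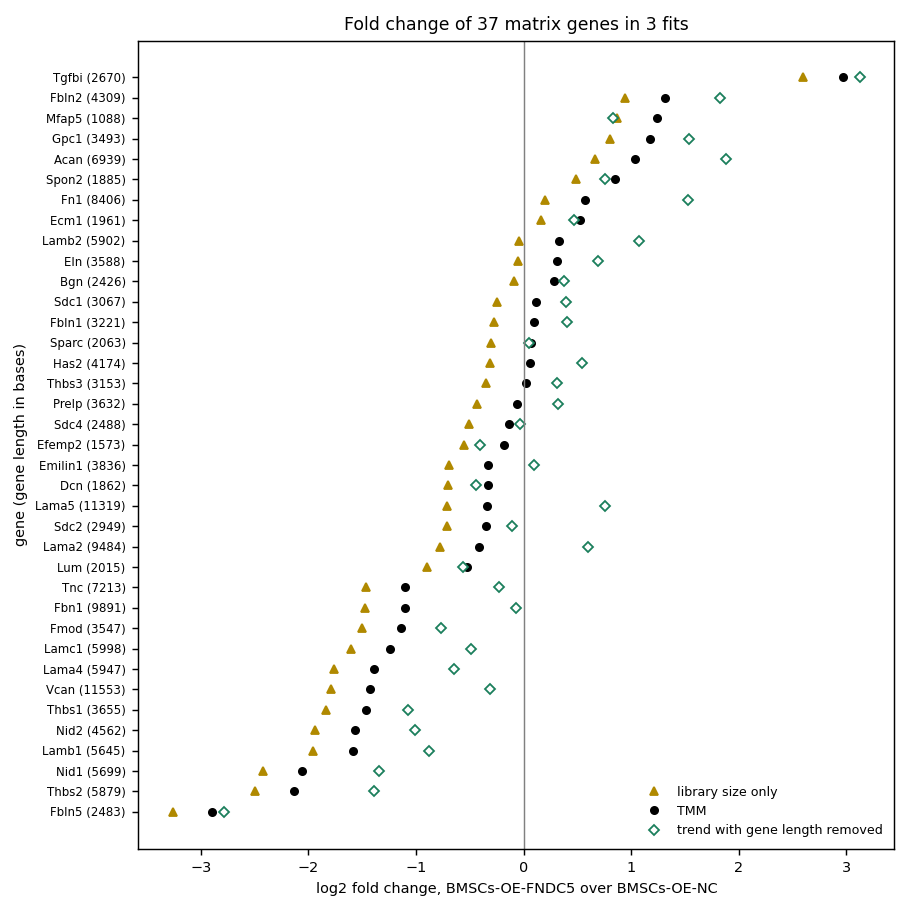
Log2 fold change between groups (positive where BMSCs-OE-FNDC5 was higher than BMSCs-OE-NC) in the 37 tested matrix genes (gene length in bases beside each name) with library size only, with TMM scaling and with the trend with gene length removed. Library size only lies left of TMM for every gene and moves 8 genes from right of 0 to left of 0, and removing the length trend moves Emilin1, Prelp, Lama2 and Lama5 from left of 0 to right of 0.

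Genes that build on or act with this matrix were read from 5 further lists of 122 genes, of which 79 were tested, with 23 higher, 38 lower and 18 that did not pass, against 36.9% higher and 38.8% lower of all genes tested, and a median log2 fold change of -0.30. With the length trend removed 32 were higher and 29 lower, against 38.1% and 33.6% of all genes. With library size only 12 were higher and 51 lower, against 22% and 55.4%. Of 34 tested enzymes of glycosaminoglycan chains 8 were higher and 18 lower, against 36.9% and 38.8% of all genes tested. Of the 18, 9 were lower past both thresholds, against 17.5% of all genes. The heparan sulphate 6-O-sulphotransferases Hs6st2 and Hs6st1 led the falls. Hs6st2 had 10.1, 9.34 and 9.07 CPM in BMSCs-OE-FNDC5, against 68.1, 70.0 and 68.1 CPM in BMSCs-OE-NC (log2 fold change -2.86), and Hs6st1 had 27.3, 26.1 and 29.3 CPM in BMSCs-OE-FNDC5, against 112, 106 and 105 CPM in BMSCs-OE-NC (-1.97). No library of one group reached the range of the other. B3gat3 is the enzyme that completes the linker between core protein and chain. Its level was 355, 343 and 340.4 CPM in BMSCs-OE-FNDC5, against 164, 167 and 166 CPM in BMSCs-OE-NC (1.06). B3gat3 was the 1 chain enzyme that rose past both thresholds, but was 0.84 with the length trend removed and 0.69 with library size only.

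Of 10 tested genes for hyaluronan synthesis, binding and breakdown 3 were higher and 6 lower, against 36.9% and 38.8% of all genes tested. Has1, another hyaluronan synthase, had 31.6, 30.2 and 29.1 CPM in BMSCs-OE-FNDC5, against 10.4, 10.1 and 10.2 CPM in BMSCs-OE-NC (log2 fold change 1.57). Cemip, which takes part in hyaluronan breakdown, had 15.5, 16.5 and 18.1 CPM in BMSCs-OE-FNDC5, against 47.4, 51.2 and 48.7 CPM in BMSCs-OE-NC (-1.56, and -0.71 with the length trend removed), and Cd44, the main hyaluronan receptor, was higher at 0.41, with 0.04 with library size only and 0.86 with the length trend removed. Of 10 other proteoglycans tested 4 were higher and 3 lower, against the same 36.9% and 38.8% of all genes. Cspg4, the NG2 proteoglycan of pericytes, had 254, 257 and 258 CPM in BMSCs-OE-FNDC5, against 102, 103 and 102 CPM in BMSCs-OE-NC (1.33, and 2.26 with the length trend removed). The TGF-β co-receptor Tgfbr3 was lower at -1.02 (-0.26 with the length trend removed) and the glypican Gpc4 at -0.65.

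Of 5 other laminin and basement membrane genes tested 2 were higher and 2 lower, against 36.9% and 38.8% of all genes tested. Lamb3, for the laminin beta 3 chain of epithelia, had 16.7, 17.2 and 14.3 CPM in BMSCs-OE-FNDC5, against 3.64, 5.68 and 5.86 CPM in BMSCs-OE-NC (log2 fold change 1.67, adjusted p = 5.53e-06). It was higher with no overlap between groups, beside the low epithelial list given above, whose part was not tested. Ntn1, a netrin, was lower at -0.51. Of 20 other matrix glycoproteins tested 6 were higher and 9 lower, against the same 36.9% and 38.8% of all genes. Pxdn is a peroxidase that crosslinks collagen IV. Its level was 126, 123 and 122 CPM in BMSCs-OE-FNDC5, against 293, 305 and 308 CPM in BMSCs-OE-NC. The log2 fold change of Pxdn was -1.29, and -0.73 with the length trend removed. Fstl1 was lower at -0.89, and Vwa1, a protein that binds perlecan, was higher at 1.16.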

How the data were processed

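Per the labels and methods, RNA of 6 libraries was sequenced on an Illumina platform by Novogene. The submitters' notes name CASAVA, Bowtie2 2.2.3, TopHat2, HISAT2 2.1.0, HTSeq 0.6.0 and DESeq2 without roles, and the mouse build mm10, although the deposited tables hold rat Ensembl IDs (32883 of 33508 rows, 0 mouse). The protocol text also speaks of retina, whereas source and title give BMSCs. The strand setting is not given in the sources used here. The deposited counts were whole numbers per gene. The deposited FPKM values equalled the count divided by gene length and by a constant of the library that the authors had scaled. Columns of all 6 libraries were matched by name.

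For the tests edgeR 4.0.16 was run in R 4.3.3 on the counts, with Benjamini-Hochberg adjustment over all 12104 genes tested. Its settings were filterByExpr with a minimum count of 10 and a minimum total of 15, TMM, glmQLFit and glmQLFTest, with group as the only term. The procedure was also run on simulated data. There only a small part of the genes changed, in either direction, and no trend with gene length was put in. That run therefore does not cover the broad shifts of these libraries. Alternatives were RLE, upper-quartile and library size scaling, other filters, DESeq2 1.42.0, limma 3.58.1 with voom or on log2(FPKM + 1) and log2(FPKM + 0.1), a replicate block, removal of each library's trend with gene length (lowess, span 0.3, as offset) and each library left out in turn. Values in every library are given for members past both thresholds and for the 3 most abundant by FPKM (Sparc, Bgn and Sdc4), and up to 3 genes with the smallest p are named in each further list. A gene that this rule would name is not reported here. Some others were added after their values were seen. Members and lists were chosen with earlier results of these data known. Promoter sequences are from RefSeq, GRCr8, and were not joined to the coordinates of the tables. Counts limit precision most for Mfap5, Dcn, Eln and Lama2.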

Additional observations from a re-analysis of the deposited data

How the results depend on the processing

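The counts of higher and lower genes stayed within 1.5 times of 12, 18, 5 and 12 in all alternatives but these. With the length trend removed 20 genes were higher and 5 were lower past both thresholds, and with library size only 1 was higher past both thresholds. The median log2 fold change of -0.18 was -0.11 with DESeq2 and with log2(FPKM + 1), -0.16 with log2(FPKM + 0.1), -0.15 with RLE scaling, -0.29 with upper-quartile scaling, -0.55 with library size only and 0.10 with the length trend removed, and between -0.23 and -0.16 without each library in turn.

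Directions turned in the following genes, of which Sparc, Eln, Bgn, Lamb2, Emilin1 and Lama5 had passed the test. With upper-quartile scaling Thbs3 was -0.082, Sparc -0.036, Fbln1 -0.0083 and Has2 -0.047. With library size only Thbs3 was -0.35, Sparc -0.30, Eln -0.055, Fbln1 -0.27, Bgn -0.086, Has2 -0.31, Lamb2 -0.0395 and Sdc1 -0.25. With at least 10 counts in every library Thbs3 was -0.0081. With the length trend removed Emilin1 was 0.10, Prelp 0.32, Lama2 0.60 and Lama5 0.76. Without each library in turn Thbs3 lay between -0.0066 and 0.0865 and Has2 between -0.0348 and 0.14. The cause of these turns was not tested beyond the construction of each alternative. Ratios of related genes were recomputed only from FPKM, without the added count and without each library in turn, and none changed sign. These alternatives could not turn a pair whose groups do not overlap, and the length trend was not removed from the ratios. The share of counts kept its sign on the TMM-scaled library size, while the summed FPKM was higher in BMSCs-OE-FNDC5.

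Replicate numbers did not pair the libraries, since deviations of same-numbered libraries from their group means correlated at -0.0251 to 0.0211. With the replicate block 11 genes were higher and 18 lower, 5 and 12 of them past both thresholds, with a median of -0.18, and Eln was the only gene whose call changed.

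Depth limits the genes at under about 5 CPM, namely Mfap5, Dcn and Lama2, and the 10 that had a row and were not tested. With 3 libraries a group, the smallest exact p of a ratio was 0.1. Counting error is covered, but not whether libraries came from separate cultures.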
